A study of Homo sapiens with 8 samples.

Results

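Heat shock proteins are chaperones, and 10 of their genes are described here across 2 bladder cancer cell lines, with and without siRNA against PAI-1 (siPAI-1). The 10 genes were taken by name from the 27475 human genes of the expression table: the small heat shock protein genes HSPB1, HSPB6 and HSPB8, the HSP70 genes HSPA1A, HSPA1B, HSPA5 and HSPA8, the HSP90 genes HSP90AA1 and HSP90B1, and the J protein gene DNAJB1. They were chosen by name, but with TPM values of these libraries in view, in particular the higher means of HSPB6 and HSPB8 with siPAI-1 in UM-UC-3 cells. The values of the 10 genes in that comparison are therefore a description, without a test. UM-UC-3 and RT112 are established human bladder cancer cell lines. Both were transfected for 72 h with 100 pmol of siRNA, either the 3 pooled siRNAs of siPAI-1 or 3 pooled scrambled ones (Scr), and mRNA was sequenced in 2 libraries of each of the 4 groups. The transfection reagent was common to all groups, and no untransfected cells were among the samples.

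Small heat shock proteins hold unfolding proteins in a state from which they can be refolded, without using ATP. HSP70 proteins bind and release unfolded stretches in cycles driven by ATP, J proteins such as DNAJB1 bring them their substrates and start ATP hydrolysis, and HSP90 proteins act later, on nearly folded clients such as kinases and steroid receptors. Cells keep constitutive members at high levels, add inducible members through heat shock factor 1 when proteins unfold in the cytosol, and induce the members of the endoplasmic reticulum (ER) through the unfolded protein response.

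The sequences before the start sites are shown for HSPA1A and HSPA1B, which went opposite ways between the lines, for the ER pair HSPA5 and HSP90B1, for HSPB6 and HSPB8, which led to the choice of genes, and for HSPA8, whose level was close to even between the lines. Each is the 250 bases before the first start that RefSeq's promoter table lists for the gene (GRCh38.p14), 5′ to 3′ on the strand of the gene. For HSPA8 this start lies inside the span of the gene record and not at its outer end. Capitals mark a heat shock pair (GAANNTTC or TTCNNGAA) or an ER stress element (CCAAT and CCACG with 9 bases between them, on either strand). HSPA1A lies on the plus strand at chr6:31815293-31815542, HSPA1B on the plus strand at chr6:31827488-31827737, HSPA5 on the minus strand at chr9:125241344-125241593, HSP90B1 on the plus strand at chr12:103930160-103930409, HSPB6 on the minus strand at chr19:35757030-35757279, HSPB8 on the plus strand at chr12:119178681-119178930 and HSPA8 on the minus strand at chr11:123062137-123062386.
HSPA1A: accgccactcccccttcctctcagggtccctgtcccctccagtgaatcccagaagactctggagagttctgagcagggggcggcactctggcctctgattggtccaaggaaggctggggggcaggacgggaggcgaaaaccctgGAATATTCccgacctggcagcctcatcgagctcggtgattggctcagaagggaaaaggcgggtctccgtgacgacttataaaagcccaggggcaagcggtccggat
HSPA1B: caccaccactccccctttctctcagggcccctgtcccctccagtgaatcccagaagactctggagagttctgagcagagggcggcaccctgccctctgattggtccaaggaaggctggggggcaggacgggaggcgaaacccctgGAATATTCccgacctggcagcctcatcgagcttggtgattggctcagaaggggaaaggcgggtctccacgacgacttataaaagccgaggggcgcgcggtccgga
HSPA5: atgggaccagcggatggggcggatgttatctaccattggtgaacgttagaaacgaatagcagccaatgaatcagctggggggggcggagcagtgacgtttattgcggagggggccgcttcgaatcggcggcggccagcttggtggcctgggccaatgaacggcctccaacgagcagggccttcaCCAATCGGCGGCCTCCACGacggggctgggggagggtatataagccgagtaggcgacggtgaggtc
HSP90B1: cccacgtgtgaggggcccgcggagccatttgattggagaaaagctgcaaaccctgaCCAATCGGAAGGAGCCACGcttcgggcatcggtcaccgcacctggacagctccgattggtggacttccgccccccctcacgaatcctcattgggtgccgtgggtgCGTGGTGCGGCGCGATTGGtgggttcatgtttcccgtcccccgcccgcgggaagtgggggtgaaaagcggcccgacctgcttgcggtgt
HSPB6: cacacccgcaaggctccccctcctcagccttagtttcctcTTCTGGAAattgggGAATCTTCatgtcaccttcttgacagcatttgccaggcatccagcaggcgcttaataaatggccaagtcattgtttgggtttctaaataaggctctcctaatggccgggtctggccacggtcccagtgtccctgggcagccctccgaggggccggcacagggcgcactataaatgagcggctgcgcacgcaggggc
HSPB8: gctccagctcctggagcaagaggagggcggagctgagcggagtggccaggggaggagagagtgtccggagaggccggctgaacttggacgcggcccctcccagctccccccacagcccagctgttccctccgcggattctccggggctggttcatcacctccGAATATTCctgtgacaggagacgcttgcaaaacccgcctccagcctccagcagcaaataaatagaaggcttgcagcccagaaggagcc
HSPA8: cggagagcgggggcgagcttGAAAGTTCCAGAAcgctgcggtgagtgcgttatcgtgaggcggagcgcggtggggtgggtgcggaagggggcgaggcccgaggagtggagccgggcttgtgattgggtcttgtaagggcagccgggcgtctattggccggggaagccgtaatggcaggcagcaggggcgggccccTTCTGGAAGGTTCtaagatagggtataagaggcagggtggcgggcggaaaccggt

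The 10 genes had 13 such windows, since some have several starts. A heat shock pair was present in 8 of the 13, 1 window in each of 8 genes, and in 11.6% of the 35116 RefSeq windows of the same length. HSPA8 and HSP90AA1, the latter at its second start, also held a pair joined 2 bases further on to another unit of the same kind, so that 2 pairs overlap, which was found in 0.441% of all windows. HSPA5 and HSP90B1, the members that work inside the ER, held no heat shock pair but carried the ER stress element, which was present in 26 of all windows, or 0.074%. HSPA5 had 1 copy, between 66 and 48 bases before its start, and HSP90B1 had 2. The HSPA1A and HSPA1B windows were identical at 235 of 251 aligned positions, or 93.6%, and each held its pair about 100 bases before the start. The motifs searched are elements already known from heat shock and ER chaperone genes. Their presence in these members is therefore a description, and the shares of all windows are no test of it. These are matches of letters and not measured binding.

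Gene levels are given as TPM, transcript abundances scaled to gene length and to a fixed total in each library, so that levels can be set side by side between genes. Differences are on the scale of log2(TPM + 0.1), which understates the difference of low genes. The libraries held an estimated 29.3 to 34.2 M reads. No gene of the table had an adjusted p under 0.05 with siPAI-1 in either line (limma with Benjamini-Hochberg adjustment), while an unadjusted p under 0.05 was found for 1114 genes among UM-UC-3 libraries and 1063 among RT112 libraries. The labels do not say that the 2 libraries of a group came from separate cultures, and the study describes independent replicate experiments of the knock-down without tying them to these libraries. The p-values measure the spread between these libraries, which may be technical. RT112 had most markers of urothelial and other epithelial cells, with a summed level of 7491 to 8058 TPM for 5 epithelial genes. The 5 urothelial genes summed to 865 to 1121 TPM, of which KRT5 (592.88 to 878.71 TPM) made up most. UPK3A was at 0 to 0.08 TPM in RT112. In UM-UC-3 these sums were 208 to 227 TPM and 7.07 to 8.02 TPM, and UPK3A was at 0 in every library. The 3 mesenchymal markers summed to 2906 to 3196 TPM in UM-UC-3 against 14.1 to 26.8 TPM in RT112. VIM (2852.45 to 3142.15 TPM against 6.04 to 8.09 TPM) and ZEB1 (43.14 to 48.34 TPM against 0.21 to 0.26 TPM) were higher in UM-UC-3. CDH2 overlapped between the lines, at 9.22 to 12.63 TPM in UM-UC-3 and 7.65 to 20.58 TPM in RT112. Leukocyte markers summed to at most 0.5 TPM in any library.

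In both lines the cytosolic HSPA8 and HSP90AA1 led. In UM-UC-3 the order of mean levels was HSPA8, HSP90AA1, HSP90B1, HSPB1, HSPA5, DNAJB1, HSPA1A, HSPA1B, HSPB8 and HSPB6, and no pair of neighbours had overlapping ranges over the 4 libraries. Among RT112 libraries HSP90AA1 and HSPA8 came first with overlapping ranges, followed by HSPB1, HSP90B1, HSPA5, HSPA1B, DNAJB1, HSPB8, HSPA1A and HSPB6, without further overlap. Together the 10 genes took 0.441% to 0.450% of the TPM in UM-UC-3, and in RT112 they took 0.501% to 0.522%. HSPA1A stood above HSPB8 in every UM-UC-3 library and below it in every RT112 library.

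**Figure D1:**
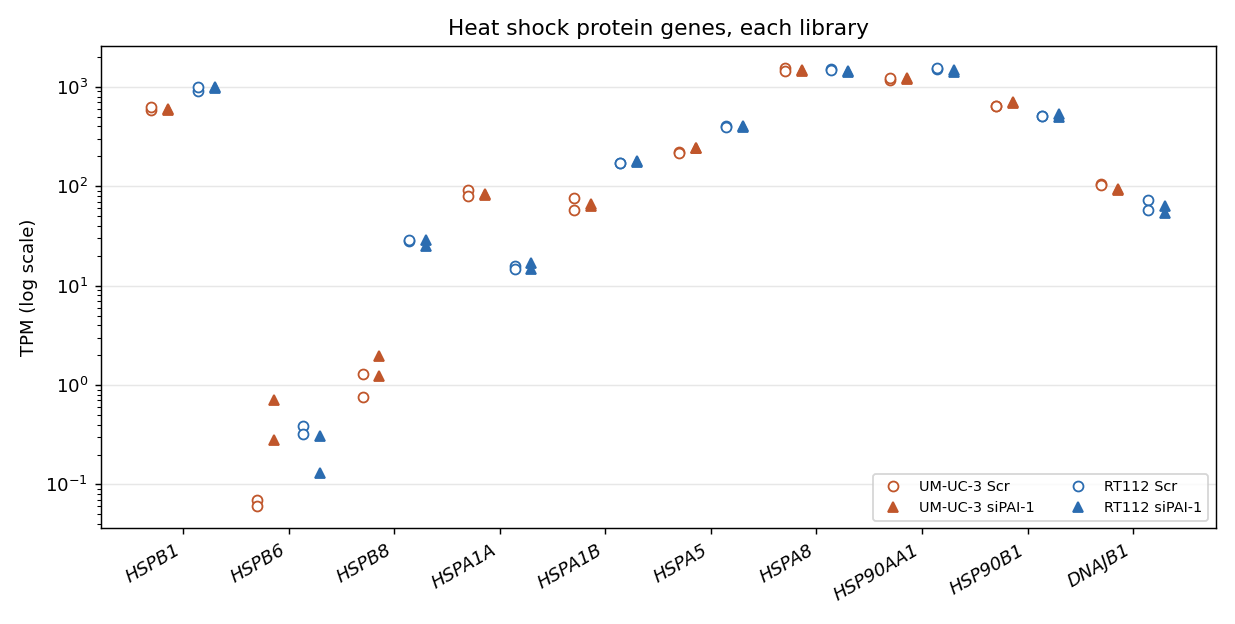
TPM of each heat shock protein gene in each of the 8 libraries, on a log scale, with Scr as open circles and siPAI-1 as filled triangles. HSPB8 is near 1 TPM in UM-UC-3 and near 28 TPM in RT112, HSPA1A and HSPA1B move in opposite directions between the lines, and HSPB6 is under 1 TPM throughout.

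The first question was whether the chaperone genes differed between siPAI-1 and Scr cells. In UM-UC-3, which the choice of genes drew on, HSPB6, HSPA5 and HSP90B1 were higher in both siPAI-1 libraries than in both Scr libraries, DNAJB1 was lower in both, and the other 6 overlapped. Over all 18528 genes tested, 32.2% had groups without overlap, in either direction. The median log2 difference of the 10 genes was 0.0 and that of all genes -0.005.

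HSPB6, also called HSP20, is a small heat shock protein best known from muscle. Its level in UM-UC-3 was 0.07 and 0.06 TPM in Scr cells and 0.7 and 0.28 TPM in siPAI-1 cells. The groups did not overlap, but the siPAI-1 libraries differed from each other by more than the lower of them differed from Scr. The mean log2 difference was 1.74 (SE 0.52). It was 0.47 with a pseudocount of 1 TPM and 2.60 with 0.01 TPM, and it ran from 1.20 to 2.28 when single libraries were left out. These levels correspond to an estimated 2.1 and 2.2 reads in Scr cells and 23.2 and 7.9 reads in siPAI-1 cells. Markers of fibroblasts and muscle summed to 9.19 to 13.5 TPM in UM-UC-3 and 18.29 to 21.67 TPM in RT112. In UM-UC-3, ACTA2 (6.13 to 8.82 TPM) and COL1A1 (2.39 to 5.0 TPM) made up most, and DCN, DES and PDGFRB were under 1 TPM. The part of these markers in the HSPB6 values was not tested.

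HSPB8, or HSP22, acts with the cochaperone BAG3 in the removal of misfolded proteins by autophagy. In UM-UC-3 it was at 0.76 and 1.3 TPM in Scr cells and at 1.23 and 1.97 TPM in siPAI-1 cells. The ranges overlapped, and the log2 difference was 0.60 (SE 0.45), an estimated 28.4 to 72.9 reads per library. HSPB1, or HSP27, is the abundant small heat shock protein of epithelial and cancer cells. At 592.24 and 631.94 TPM in Scr cells against 584.22 and 602.12 TPM in siPAI-1 cells, its groups overlapped, with a log2 difference of -0.04 (SE 0.06).

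HSPA5 (BiP) is the HSP70 of the ER, where it binds entering chains and holds the stress sensors inactive, and HSP90B1 (GRP94) is the ER's HSP90. HSPA5 was at 220.1 and 218.16 TPM in Scr cells and at 243.03 and 245.03 TPM in siPAI-1 cells, a mean higher by 11.4% (log2 difference 0.16, SE 0.05). HSP90B1 was at 637.82 and 638.57 TPM in Scr cells and at 696.29 and 710.32 TPM in siPAI-1 cells, a mean higher by 10.2% (log2 difference 0.14, SE 0.05). The libraries of each group lay close together and the groups did not overlap for either gene. These are the 2 members with the ER stress element shown above. Over all 8 libraries, the deviations of HSPA5 and HSP90B1 from the mean of their line had a Pearson correlation of 0.96, as a description over libraries that share the same cells, siRNA groups and depth. HSPB6, whose window held no ER stress element, had correlations of 0.84 with HSPA5 and 0.81 with HSP90B1. The UM-UC-3 values that the choice of genes drew on are part of all these correlations. A link of the element to the levels was not tested.

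The ER list of 20 further chaperones and genes of the unfolded protein response had 6 genes without overlap in UM-UC-3, against 32.2% of all genes, and none of the 20 had an unadjusted p under 0.05, against 6.01%. Of the 6, 4 were higher in both siPAI-1 libraries: CANX, the membrane-bound lectin chaperone calnexin (log2 difference 0.09), EDEM1, which sends misfolded glycoproteins to degradation (0.10), the disulfide isomerase PDIA3 (0.05) and the ER HSP110 gene HYOU1 (0.05). CANX was at 455.95 and 482.15 TPM in Scr cells and 502.03 and 495.86 TPM in siPAI-1 cells. HYOU1 was at 112.45 and 106.28 TPM against 113.24 and 112.65 TPM, so its groups were barely apart. The 2 lower genes were DDIT3, which encodes the stress factor CHOP (-0.15), and SYVN1, a ubiquitin ligase of ER-associated degradation (-0.24). The other 14, among them CALR and PDIA4, overlapped. Genes of the ER placed in other lists are not in these counts. Of these, the J protein genes DNAJC3 (log2 difference 0.23) and DNAJB11 (0.12) and the HSP70 regulator SIL1 (0.28) were higher in both siPAI-1 libraries. DNAJB9, DNAJC1, DNAJC10 and HSPA13 overlapped. The list of J proteins had 3 genes higher and 4 lower without overlap, as had the list of BAG proteins and HSP70 regulators.

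DNAJB1 (HSP40) starts ATP hydrolysis on cytosolic HSP70. In UM-UC-3 it was at 106.32 and 104.2 TPM in Scr cells and at 94.77 and 92.49 TPM in siPAI-1 cells, a log2 difference of -0.17 (SE 0.05). Both siPAI-1 libraries were lower than both Scr libraries. The inducible HSP70 genes HSPA1A and HSPA1B did not share this order. HSPA1A was at 91.27 and 80.77 TPM in Scr cells and 84.5 and 81.81 TPM in siPAI-1 cells, and HSPA1B at 75.77 and 57.57 TPM against 62.9 and 65.96 TPM. In each, both siPAI-1 values lay between the Scr values. The constitutive HSPA8 (log2 difference -0.02, SE 0.06) and HSP90AA1 (0.02, SE 0.05) overlapped as well.

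The same comparison in RT112 was tested. No gene among the 10 reached an adjusted p under 0.05, where 0.0% of all 18437 genes did, and none had an unadjusted p under 0.05, where 5.77% of all genes did (limma with Benjamini-Hochberg adjustment). HSPB6, HSP90AA1 and HSPA8 were lower and HSPA1B was higher in both siPAI-1 libraries without overlap, and over all genes 32.7% had no overlap in either direction. The median log2 difference was -0.04 for the 10 genes and 0.014 for all genes.

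HSPB6 was at 0.39 and 0.32 TPM in Scr cells and at 0.31 and 0.13 TPM in siPAI-1 cells in RT112, so the groups were separated by no more than the last digit of the table. Its log2 difference was -0.56 (SE 0.48, 95% interval -1.82 to 0.69, adjusted p = 0.838, limma), from an estimated 3.9 to 11.0 reads per library. HSPB8 was at 27.98 and 28.87 TPM in Scr cells and 25.28 and 28.5 TPM in siPAI-1 cells, with a log2 difference of -0.08 (95% interval -0.34 to 0.17, adjusted p = 0.876, limma). The sign of both log2 differences was opposite to that in UM-UC-3, and the difference between the lines in the response was not tested.

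For the ER pair the log2 differences in RT112 were near 0, with intervals that rest on the spread between these libraries. HSPA5 was at 400.75 and 390.98 TPM in Scr cells and 408.83 and 390.82 TPM in siPAI-1 cells (log2 difference 0.01, 95% interval -0.12 to 0.15, adjusted p = 0.963, limma). HSP90B1 was at 509.75 and 512.51 TPM against 531.36 and 496.1 TPM (0.01, 95% interval -0.14 to 0.15, adjusted p = 0.984, limma). The groups overlapped for both genes. The HSP90B1 interval included the UM-UC-3 difference of 0.14, and the HSPA5 interval reached 0.15, beside 0.16 in UM-UC-3. Whether the response of the pair differed between the lines was not tested.

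The cytosolic pair HSPA8 and HSP90AA1 gave lower values in both RT112 siPAI-1 libraries. HSPA8 was at 1516.41 and 1485.91 TPM in Scr cells and 1412.91 and 1429.67 TPM in siPAI-1 cells (log2 difference -0.08, 95% interval -0.21 to 0.05, adjusted p = 0.838, limma). HSP90AA1 was at 1526.7 and 1550.09 TPM against 1416.3 and 1474.04 TPM (-0.09, 95% interval -0.22 to 0.04, adjusted p = 0.838, limma). Neither passed the test. HSPA1B was at 170.91 and 173.16 TPM in Scr cells and 175.5 and 178.5 TPM in siPAI-1 cells, a log2 difference of 0.04 (SE 0.05). DNAJB1 was at 73.61 and 58.09 TPM against 53.96 and 63.92 TPM, a log2 difference of -0.15 with an interval of -0.55 to 0.24. HSPB1 (0.04, SE 0.07) and HSPA1A (0.05, SE 0.13) overlapped between the groups.

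**Figure D2:**
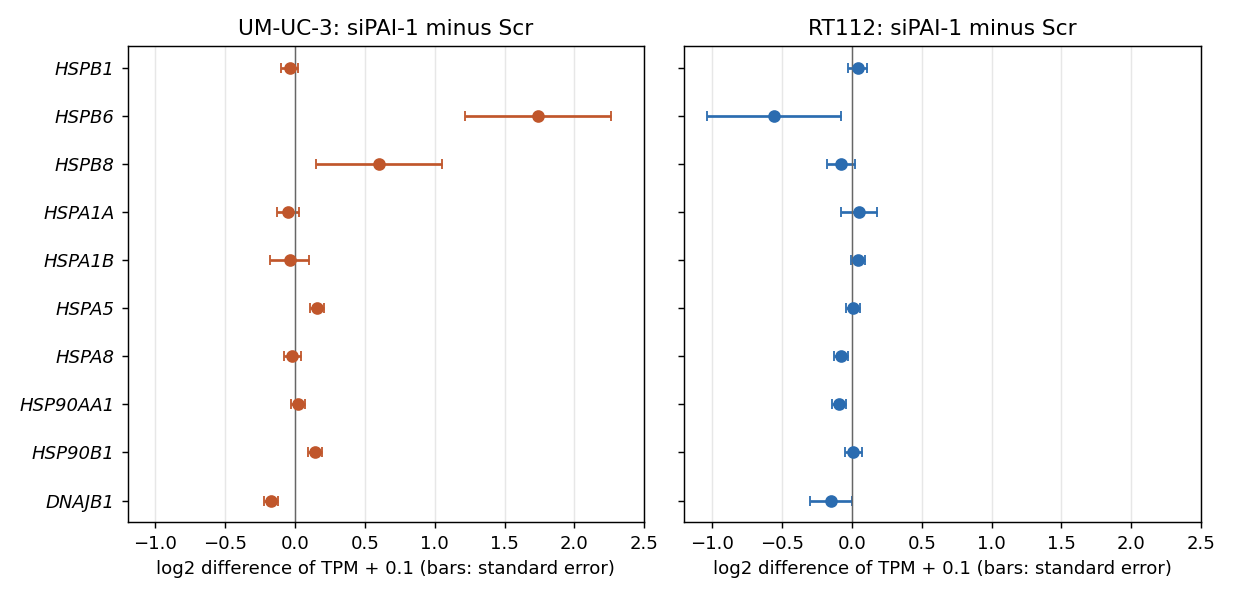
Log2 difference of TPM + 0.1 between siPAI-1 and Scr for each gene in UM-UC-3 (left) and RT112 (right), with standard errors from limma. HSPB6 has the widest bars, at 1.74 on the left and -0.56 on the right, and HSPA5 and HSP90B1 are at 0.16 and 0.14 in UM-UC-3 and at 0.01 in RT112.

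The second question was how the chaperone genes differed between the cell lines, with the siRNA as a covariate and 4 libraries a line. Of the 10 genes, 5 were higher in RT112 (HSPB8, HSPA1B, HSPA5, HSPB1 and HSP90AA1) and 3 were lower (HSPA1A, DNAJB1 and HSP90B1) at an adjusted p under 0.05. Over all 20274 genes tested, 29.7% were higher and 30.9% lower, so a called difference was common in this comparison. All 8 called genes also had no overlap between the lines, as did 56.0% of all genes. The median log2 difference was 0.3 for the 10 genes and -0.034 for all genes. The epithelial markers above, and VIM and ZEB1 among the mesenchymal ones, move with the same contrast, and their part in these differences was not tested. The lines differ in many further ways, which 1 line of each kind cannot tell apart, and in bulk samples fewer cells with a transcript cannot be told apart from less of it per cell.

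HSPB8 had the largest difference of the 10. It was at 1.32 ± 0.498 TPM (SD, n = 4) in UM-UC-3 and 27.7 ± 1.63 TPM (SD, n = 4) in RT112, a 21.03-fold higher mean (log2 difference 4.36, 95% interval 3.84 to 4.89, adjusted p = 5.55e-07, limma). The lowest RT112 library, at 25.28 TPM, stood above the highest UM-UC-3 library, at 1.97 TPM. The low HSPB8 level of UM-UC-3 was in view when the genes were chosen, so this p-value is no independent support. HSPB1 was also higher, at 974 ± 42.2 TPM against 603 ± 20.9 TPM (SD, n = 4 each, log2 difference 0.69, adjusted p = 1.59e-06, limma).

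HSPB6 did not pass the test between the lines when all libraries were used (log2 difference 0.31, SE 0.52, 95% interval -0.88 to 1.49, adjusted p = 0.628, limma). With the Scr libraries alone it was higher in RT112 by 1.46 (adjusted p = 0.0178, limma), and with the siPAI-1 libraries alone the log2 difference was -0.84 (adjusted p = 0.286, limma). Both rest on UM-UC-3 libraries whose HSPB6 values were in view when the genes were chosen. Its levels lay between 0.06 and 0.7 TPM throughout.

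HSPA1A and HSPA1B encode the same stress-inducible HSP70 and lie next to each other on chromosome 6, at 31815543 to 31817942 and 31827738 to 31830254 (GRCh38.p14). HSPA1A was at 84.6 ± 4.72 TPM in UM-UC-3 and 15.5 ± 1.06 TPM in RT112 (SD, n = 4 each), a level 5.47-fold lower in RT112 (log2 difference -2.44, SE 0.07, adjusted p = 2.25e-08, limma). HSPA1B went the other way, from 65.6 ± 7.65 TPM to 174.5 ± 3.25 TPM (SD, n = 4 each), 2.66-fold higher in RT112 (log2 difference 1.42, SE 0.08, adjusted p = 8.01e-07, limma). Summed, they were at 150.1 TPM in UM-UC-3 and 190.0 TPM in RT112, a log2 difference of 0.34 (SE 0.06, adjusted p = 0.000926, limma), so that the direction of HSPA1A is not that of the sum. HSPA1A made up 54.6% to 58.4% of the sum in every UM-UC-3 library and 7.7% to 8.6% in every RT112 library.

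How reads were divided between these copies bears on each value. Their coding sequences differed at 4 of 1926 bases, and 1716 of the 2326 stretches of 75 bases in the HSPA1A transcript, or 73.8%, also occurred in the HSPA1B transcript (GENCODE release 44). In the other direction it was 70.2%. Reads from these stretches fit both genes, so the value of each gene alone is uncertain. If shared reads were divided and not dropped, the sum depends less on the division, as the transcripts have similar lengths (2400 and 2517 bases).

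**Figure D3:**
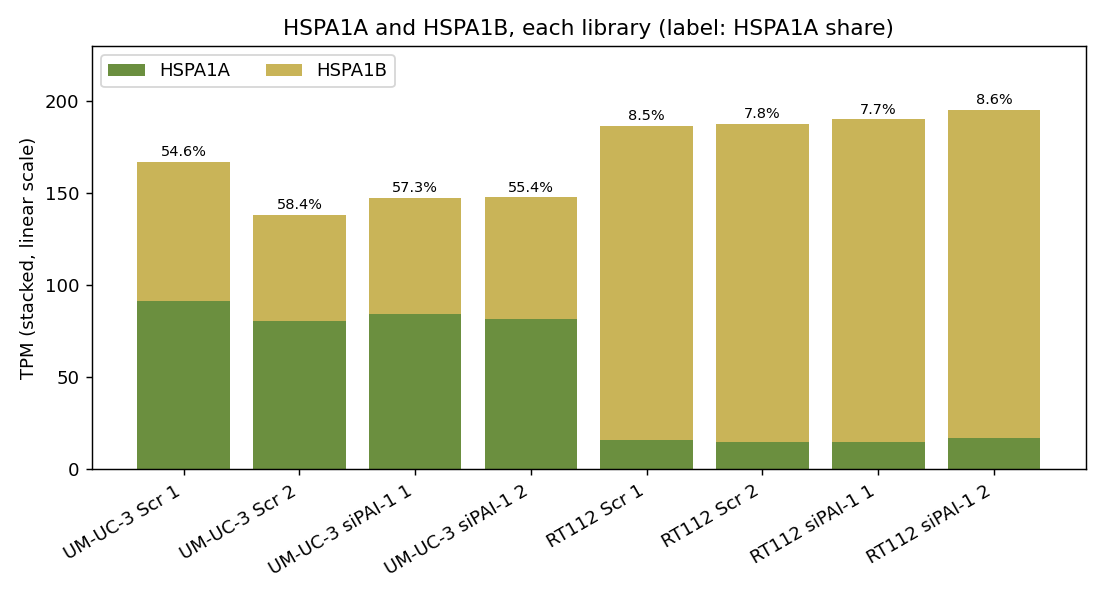
Stacked TPM of HSPA1A (lower) and HSPA1B (upper) in each library on a linear scale, with the share of HSPA1A above each bar. HSPA1A is 54.6% to 58.4% of the sum in UM-UC-3 and 7.7% to 8.6% in RT112, while the sums are 138.3 to 167.0 TPM and 186.7 to 195.3 TPM.

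The ER members went in opposite directions between the lines. HSPA5 was higher in RT112, at 397.8 ± 8.67 TPM against 231.6 ± 14.4 TPM (SD, n = 4 each, log2 difference 0.78, adjusted p = 4.61e-07, limma). HSP90B1 was lower, at 512.4 ± 14.5 TPM against 670.8 ± 38.0 TPM (SD, n = 4 each, log2 difference -0.39, adjusted p = 3.68e-05, limma). HSPA5 thus stood at less of the HSP90B1 level in every UM-UC-3 library than in any RT112 library, although the deviations of both genes within the lines moved together.

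In the cytosol, HSPA8, the constitutive HSC70, was at 1484 ± 50.3 TPM in UM-UC-3 and 1461 ± 48.3 TPM in RT112 (SD, n = 4 each), with a log2 difference of -0.02 (95% interval -0.10 to 0.06, adjusted p = 0.59, limma). HSP90AA1, the inducible cytosolic HSP90, was higher in RT112 at 1492 ± 59.5 TPM against 1217 ± 29.7 TPM (log2 difference 0.29, adjusted p = 0.000133, limma). Its constitutive partner HSP90AB1, which is not among the 10, was higher in RT112 by 0.81 on the log2 scale (adjusted p = 4.8e-08, limma), so that HSP90AA1 stood at 1.13 to 1.19 times HSP90AB1 in UM-UC-3 and at 0.787 to 0.834 times in RT112. DNAJB1 was lower in RT112, at 62.4 ± 8.52 TPM against 99.4 ± 6.83 TPM (SD, n = 4 each, log2 difference -0.68, adjusted p = 0.000105, limma).

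Around the 10 genes, 94 further genes of the chaperone system were listed by role, all with an entry in the table and 89 of them above 0 in at least 1 library. With siPAI-1 none had an adjusted p under 0.05 in either line. At an unadjusted p under 0.05, HSBP1 was higher and BAG4 and HIP1R lower in UM-UC-3, and DNAJA4 and DNAJB2 were higher and FKBP4 lower in RT112. This is 3 of 89 in each line, beside 6.01% (UM-UC-3) and 5.77% (RT112) of all genes. Between the lines, 45 were higher and 22 lower in RT112 at an adjusted p under 0.05, beside 29.7% and 30.9% of all genes.

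Of the other small heat shock proteins, 5 of 8 were at 0 in all libraries (CRYAA, HSPB2, HSPB3, HSPB7 and ODF1). Only HSPB11, which works in transport within cilia, was called, at 61.0 TPM in UM-UC-3 and 187.0 TPM in RT112. Among 11 other HSP70 and HSP110 genes, 3 were higher and 4 lower in RT112. HSPH1, the HSP110 that exchanges the nucleotide of HSP70, was higher by 1.24 and HSPA13 was lower by a log2 difference of -1.69. The mitochondrial HSPA9 was the most abundant of that list, at 732.8 TPM in UM-UC-3 and 563.8 TPM in RT112.

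Genes for HSP70 regulators and other J proteins were called in both directions between the lines, beside 29.7% higher and 30.9% lower over all genes. BAG3, the cochaperone of HSPB8, was at 152.2 TPM in UM-UC-3 and 65.8 TPM in RT112 (log2 difference -1.21, adjusted p = 2.95e-07, limma), the reverse of HSPB8. Of 12 BAG proteins and regulators of HSP70, 6 were higher and 4 lower, among them BAG2 with a log2 difference of -3.78 and the nucleotide exchange factor GRPEL1 with 1.22. Of 18 other J proteins, 9 were higher and 3 lower. DNAJA4 was at 0.22 TPM in UM-UC-3 and 41.5 TPM in RT112, and DNAJB5 was at 17.4 TPM and 0.975 TPM. DNAJC3, a J protein of the ER that works with HSPA5, was higher in RT112 by 1.53 on the log2 scale.

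Among 4 genes for heat shock factors and their regulator, HSF2 was lower in RT112 (log2 difference -1.64) and HSF4 (1.69) and HSBP1 (1.70), which binds heat shock factor 1, were higher. HSF1, the gene of that factor, was at 124.8 TPM in UM-UC-3 and 123.8 TPM in RT112 (log2 difference -0.01, adjusted p = 0.837, limma). Of 11 genes for other HSP90 proteins and HSP90 cochaperones, 6 were higher, such as the mitochondrial HSP90 gene TRAP1 (0.67), and 3 lower, such as FKBP5 (-1.01). Of 10 chaperonin genes, 6 were higher, with HSPD1 at 514.5 TPM in UM-UC-3 and 952.0 TPM in RT112, and 3 lower, with CCT2 at 486.4 TPM and 404.9 TPM. The ER list had 12 higher and 4 lower genes of 20. PDIA3 was higher by 0.82, like HSPA5, while CALR was lower with a log2 difference of -0.57, like HSP90B1.

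**Figure D4:**
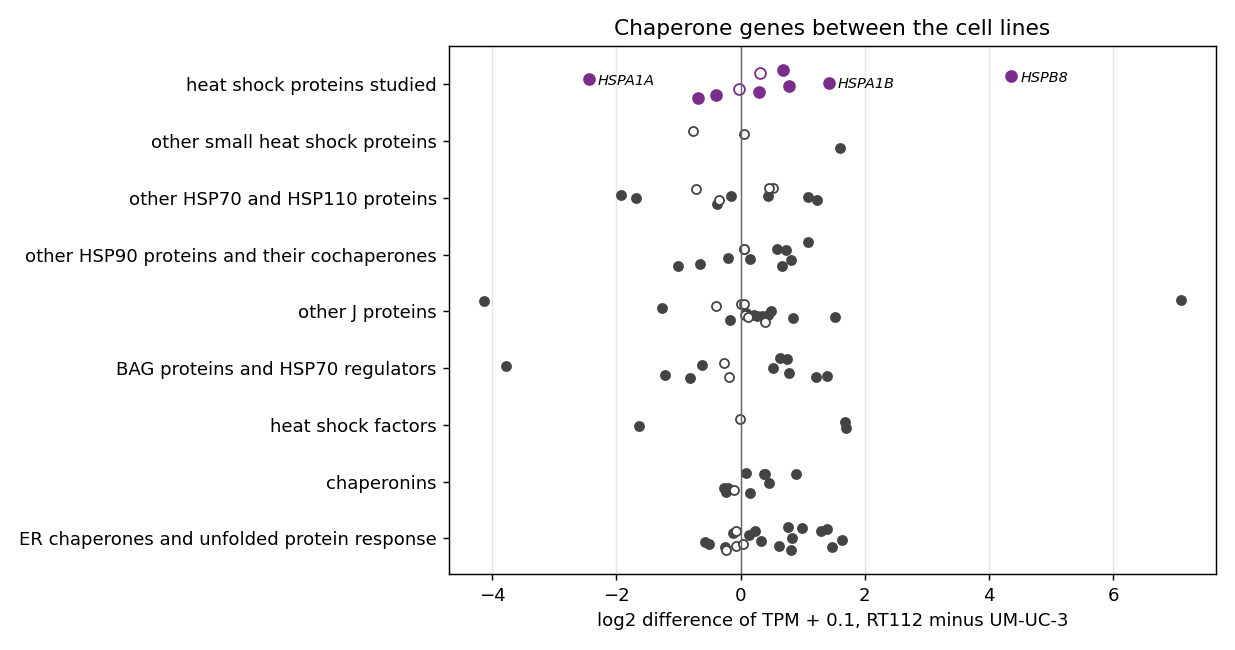
Log2 difference of TPM + 0.1 between RT112 and UM-UC-3 for the 10 heat shock protein genes and for the 89 tested genes of 8 chaperone lists, where a point is a gene, filled at an adjusted p under 0.05, and its height within a row has no meaning. HSPB8 is at 4.36, HSPA1B at 1.42 and HSPA1A at -2.44, and every list but the small heat shock proteins has filled points on both sides of 0.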

How the data were processed

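Messenger RNA was sequenced in 8 libraries of the UM-UC-3 and RT112 cell lines, 2 for each line and siRNA, and each library was grouped by its labels. For every gene, TPM and FPKM values with 2 decimals were deposited by the authors, made from reads aligned to GRCh38. The submitters' processing notes name STAR 2.5.0 and RSEM 1.2.25, and the column names of both tables end as RSEM's gene tables do, whereas the study's methods name featureCounts, after cutadapt and STAR. The settings by which reads were divided between similar genes are not given in the sources used here. The authors compared groups with DESeq2, which takes counts, and limma on log values stands in its place.

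ERCC spike-ins (92 entries, all at 0) were dropped, and 7201 of the 27475 human genes had no value above 0 in any library. Depth was estimated as the number of reads that brings the deposited FPKM values of short genes with 1 transcript closest to whole reads, between 20 and 45 M reads. Other depths were not searched. Read numbers per gene are estimates from this depth and the longest transcript, and cover counting error only.

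Values of log2(TPM + 0.1) were fitted with limma 3.58.1 under R 4.3.3, with two-sided moderated tests, a trend on the mean, and Benjamini-Hochberg adjusted p-values over genes above 0 in at least 1 library fitted. Each line was fitted on its own for the knock-down, and all 8 libraries with the siRNA as covariate for the lines. The method was tested on simulated data, with a spread not taken from these libraries. Of 50 genes changed 2-fold, 16 were recovered in the UM-UC-3 layout, 18 in the RT112 layout and 50 between the lines. At 4-fold these were 38, 46 and 50. Most simulated 2-fold changes with siPAI-1 were thus missed. The 10 genes, the lists and the tests were chosen with earlier results of these data known. The level of the siRNA's target is not reported here. The text names all 10 genes and genes from each list that were its most abundant or among the 2 with the smallest p in each direction between the lines, among called genes whose mean reached 1 TPM. List genes named for the knock-down or for values of 0, and HSF1, were chosen after their values were seen. Promoter sequences, starts and gene positions are RefSeq's for GRCh38.p14. Transcripts of HSPA1A and HSPA1B were taken by name from GENCODE release 44 mapped to GRCh37. Python 3.11.15 was used for the searches. Alternatives were other pseudocounts, FPKM, rescaling by the median ratio, a filter at a mean of 1 TPM, no trend, 1 fit over all libraries, a replicate block and leaving out each library.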

Additional observations from a re-analysis of the deposited data

Results flagged for a closer look

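HSPB6 was flagged because its siPAI-1 libraries lay on opposite sides of Scr in the 2 lines. Its log2 difference was 1.74 in UM-UC-3, where both siPAI-1 libraries were above both Scr libraries, and -0.56 in RT112, where both were below. The difference between the lines was not tested, all levels were under 1 TPM, and the RT112 value did not pass the test.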

How the results depend on the processing

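Of 520 values under other settings for 41 results, 502 kept their direction and their side of the threshold or moved by less than the spread. The counts of 5 higher and 3 lower genes between the lines and of 0 of the 10 with siPAI-1 in RT112, were the same in the fits run with other settings and with any library left out, except that the Scr libraries alone gave 6 higher genes, HSPB6 being the addition. The UM-UC-3 values of HSPB6 and HSPB8 were in view when the genes were chosen, so their part in these counts is no independent support. Under the filter at a mean of 1 TPM 9 of the 10 were tested. With HSPA1A and HSPA1B summed the counts were not recomputed, and HSPA1A is then no longer lower. Over all genes, a filter at a mean of 1 TPM gave 1 called gene in UM-UC-3, and a fit over all 8 libraries gave 2 in RT112, where the counts were 0 otherwise. Leaving out single libraries gave 0 in both lines and 11609 to 11795 genes between the lines. In UM-UC-3, HSPB6 was at 0.47 with a pseudocount of 1 TPM and 2.60 with 0.01 TPM, both far from 0.1 relative to a level under 1 TPM. In UM-UC-3, leaving out single libraries moved the log2 differences across 0 for HSPB1 (-0.09 to 0.0021), HSPA1A (-0.13 to 0.04), HSPA1B (-0.23 to 0.16), HSPA8 (-0.08 to 0.03) and HSP90AA1 (-0.02 to 0.06). In RT112, leaving out single libraries moved the log2 differences across 0 for HSPB1 (-0.02 to 0.11), HSPB8 (-0.17 to 0.004), HSPA1A (-0.05 to 0.14), HSPA5 (-0.02 to 0.05), HSP90B1 (-0.04 to 0.06) and DNAJB1 (-0.33 to 0.02), none of them called. HSP90B1 was at -0.004 after rescaling. Between the lines, HSPB6 was at 1.46 with Scr alone and -0.84 with siPAI-1 alone, HSPA1A at 0.34 when summed with HSPA1B, and HSPA8 at 0.02 after rescaling and 0.005 with Scr alone. The causes were not tested. The labels do not say whether libraries of the same number were paired. The correlation of replicate differences between the siRNA groups (0.056 for UM-UC-3, -0.046 for RT112) showed no sign of pairing but cannot settle it. The replicate block gave 0 called genes with siPAI-1 in either line, 12185 between the lines and the same counts among the 10. The RT112 intervals rest on the spread between 2 libraries a group, which may be technical. They therefore need not bound a difference between separate cultures. The interval of HSPB6, at an estimated 3.9 to 11.0 reads per library, is the widest.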

Other observations

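By the correlation of deviations from the line mean over the 8 libraries, 8599 genes whose mean reached 10 TPM were searched for the patterns closest to 2 of the heat shock protein genes. HSPA5 was closest to COMMD6 (Pearson r 0.989), OSTC (0.981), a subunit of the ER complex that attaches sugars to proteins, and MESDC2 (0.975), an ER chaperone for lipoprotein receptors. HSPA1A was closest to TRA2A (0.971) and ZFR (0.965), which bind RNA, and WDR6 (0.967). The libraries share cells, siRNA groups and depth, and the highest of so many correlations over 8 points is high by selection, so these are descriptions only.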
